A study of Mus musculus with 16 samples.

Results

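The small proline-rich (SPRR) and late cornified envelope (LCE) families were taken as every gene of the count table whose symbol starts with Sprr, or with Lce followed by a digit. This gave 36 genes of the 26357 in the table. The 16 SPRR genes comprised 2 SPRR1, 12 SPRR2, 1 SPRR3 and 1 SPRR4 gene, and the 20 LCE genes comprised 13 LCE1, 6 LCE3 and 1 LCE6 gene. The rule used names and no measured value, but it was set with earlier results of these data known. RNA was sequenced from mice in 4 groups of 4 libraries: vehicle with an oral drug vehicle, IL-23 with an oral drug vehicle, vehicle with an intraperitoneal drug vehicle, and IL-23 with an intraperitoneal drug vehicle. In all 4 groups the drug vehicle carried 0 mpk of compound. IL-23 is an inflammatory cytokine that acts mainly on T cells and other lymphocytes, and the study's title places it in a mouse model of psoriasis-like skin inflammation. The labels used here give no tissue, strain, genotype, age, IL-23 dose or day of harvest, and libraries are named here by the number that opens their title. P-values rest on how far these libraries differ from each other within a group.

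SPRR and LCE proteins are small building blocks of the cornified envelope, the insoluble protein shell that replaces the membrane of keratinocytes as they die at the skin surface. Transglutaminases cross-link them to one another and to involucrin, loricrin and other envelope proteins. The genes lie side by side in the epidermal differentiation complex. LCE1 genes are known as envelope genes of undisturbed epidermis, whereas LCE3, SPRR1 and SPRR2 genes are known for low levels in resting skin and for high levels in wounded, irritated or psoriatic skin. The comparison asks how IL-23 changed each subfamily within each dosing route.

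All 36 members were matched to gene records of RefSeq on mouse chromosome 3 (GRCm38.p6), between 92215835 and 93019061. From low to high coordinates they ran from the 12 SPRR2 genes (92215835 to 92433927) through Sprr1b (92436808 to 92438817), Sprr3 (92456502 to 92458720), Sprr1a (92483954 to 92485881) and Sprr4 (92500263 to 92500493). Lce6a (92604821 to 92621660) came next, then 12 of the LCE1 genes (92646532 to 92851286) and the 6 LCE3 genes (92925287 to 92993426). The remaining LCE1 gene, Lce1m (93017807 to 93019061), lay beyond the LCE3 genes and apart from the rest of its subfamily. Sprr2g and Sprr2j-ps are annotated there as transcribed pseudogenes, and the other 34 members as protein coding.

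The stretches before the annotated start are shown for members on which the results turn: 3 SPRR2 genes (Sprr2d, the most abundant with IL-23, and Sprr2b and Sprr2i, which were among the largest rises), the SPRR1 gene Sprr1a, the most abundant LCE3 and LCE1 genes, and Lce1m, which fell. Each is 210 bases of RefSeq (GRCm38.p6), read 5′ to 3′ on the gene's strand and ending at the base before the start. Capitals mark matches to any of the 9 motifs searched.
Sprr2b, chr3:92316495-92316704, plus strand: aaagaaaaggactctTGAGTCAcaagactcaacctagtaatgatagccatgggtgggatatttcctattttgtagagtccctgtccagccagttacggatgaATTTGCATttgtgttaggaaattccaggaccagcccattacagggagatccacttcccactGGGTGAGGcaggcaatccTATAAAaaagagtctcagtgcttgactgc
Sprr2d, chr3:92338930-92339139, plus strand: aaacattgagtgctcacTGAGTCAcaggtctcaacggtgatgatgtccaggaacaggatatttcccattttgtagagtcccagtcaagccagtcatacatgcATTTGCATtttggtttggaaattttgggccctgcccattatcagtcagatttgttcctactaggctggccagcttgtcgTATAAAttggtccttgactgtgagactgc
Sprr2i, chr3:92407781-92407990, plus strand: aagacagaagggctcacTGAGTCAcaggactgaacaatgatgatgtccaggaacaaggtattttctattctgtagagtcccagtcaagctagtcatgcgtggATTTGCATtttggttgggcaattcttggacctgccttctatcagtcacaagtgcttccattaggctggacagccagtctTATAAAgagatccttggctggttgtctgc
Sprr1a, chr3:92485882-92486091, minus strand: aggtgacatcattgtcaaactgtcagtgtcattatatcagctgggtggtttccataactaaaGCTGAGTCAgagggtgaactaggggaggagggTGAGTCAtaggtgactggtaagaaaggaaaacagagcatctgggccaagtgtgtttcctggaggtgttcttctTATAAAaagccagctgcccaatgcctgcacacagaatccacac
Lce3b, chr3:92932769-92932978, plus strand: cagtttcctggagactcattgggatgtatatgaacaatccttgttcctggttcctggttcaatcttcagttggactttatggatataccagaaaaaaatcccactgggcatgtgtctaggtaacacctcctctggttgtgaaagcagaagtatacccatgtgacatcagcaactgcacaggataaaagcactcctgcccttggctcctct
Lce1a1, chr3:92648308-92648517, minus strand: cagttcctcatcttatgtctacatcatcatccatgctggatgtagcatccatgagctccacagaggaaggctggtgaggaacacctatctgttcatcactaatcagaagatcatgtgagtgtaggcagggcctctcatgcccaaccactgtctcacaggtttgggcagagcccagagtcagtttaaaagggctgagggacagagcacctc
Lce1m, chr3:93019062-93019271, minus strand: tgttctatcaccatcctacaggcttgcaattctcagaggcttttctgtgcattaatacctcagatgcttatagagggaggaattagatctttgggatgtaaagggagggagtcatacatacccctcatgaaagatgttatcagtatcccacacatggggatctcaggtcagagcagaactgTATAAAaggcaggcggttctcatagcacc

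The motifs were searched on both strands from 250 bases before to 50 bases after the start, in the 33 members matched in the RefSeq promoter table (all but Sprr2g, Sprr2j-ps and Lce1f) and in all 32851 promoters of that table. AP-1 (TGANTCA), the site of Jun and Fos dimers, was present in 2 of 2 SPRR1 and 7 of 10 SPRR2 promoters and in 0 of 12 LCE1 and 0 of 6 LCE3 promoters, against 7.81% of all promoters. The octamer ATTTGCAT, a site of POU factors, was present in 7 of 10 SPRR2 promoters and in none of the SPRR1, LCE1 or LCE3 promoters, against 1.74% of all promoters. The same 7 genes (Sprr2b, Sprr2d, Sprr2e, Sprr2f, Sprr2h, Sprr2i and Sprr2k) held a TATA box (TATAAA), as did the 2 SPRR1 and the SPRR3 promoters. The letters also matched in 2 of 12 LCE1, 1 of 6 LCE3 and the LCE6 promoter, and in 13.6% of all promoters. The LCE3 match (Lce3e) and the LCE6 match lay on the opposite strand, 243 to 238 and 218 to 213 bases before the start. Both LCE1 matches, in Lce1d and Lce1m, lay on the gene's own strand near the start. The 3 SPRR2 promoters without AP-1, octamer or TATA matches were those of Sprr2a1, Sprr2a2 and Sprr2a3. Their annotated starts lie farther from the coding start than that of Sprr2b. The letters GGGTGAGG lay 39 to 46 bases after the start in Sprr2a1 and 47 to 40 bases before it in Sprr2b. The window may thus cover a different region in these 3 genes. An antioxidant response motif (TGACNNNGC, 12.4% of all promoters) matched in 1 SPRR1, 1 SPRR2, 1 LCE1, 3 LCE3 and the LCE6 promoter, and in Sprr1a it overlapped an AP-1 match. STAT (TTCNNNGAA, 8.30%) matched in 2 SPRR2 and 1 LCE1, NF-kB (20.7%) in 1 SPRR2 and KLF (GGGNGNGG, 49.5%) in 5 SPRR2 and the SPRR4 promoter. GRHL (AACNGGTT, 2.09%) and ISRE (3.44%) matched in none of the 33. A match is a description of letters in this window.

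Near-identical members can share reads, and the handling of multiply mapped reads by the submitters is not given in the sources used here. As a measure of likeness, the first 60 coding bases are shown from GENCODE M21 transcripts on GRCm38, with capitals at bases that differ from the first gene of each set (Sprr2a3 for SPRR2, Lce1a1 for LCE1).
Sprr2a3: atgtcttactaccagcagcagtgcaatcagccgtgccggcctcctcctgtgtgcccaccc
Sprr2b: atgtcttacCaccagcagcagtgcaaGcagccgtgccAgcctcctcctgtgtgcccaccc
Sprr2d: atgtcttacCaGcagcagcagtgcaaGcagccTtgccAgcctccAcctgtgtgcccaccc
Lce1a1: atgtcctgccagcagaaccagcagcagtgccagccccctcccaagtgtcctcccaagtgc
Lce1a2: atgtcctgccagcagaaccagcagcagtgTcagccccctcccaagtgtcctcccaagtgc
Lce1m: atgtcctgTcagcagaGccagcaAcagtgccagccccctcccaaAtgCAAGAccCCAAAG
Sprr2a1 and Sprr2a2 have the same 60 bases as Sprr2a3. Sprr2b differs from it at 3 and Sprr2d at 6 of the 60 positions, Lce1a2 differs from Lce1a1 at 1 position and Lce1m at 15. Over whole transcripts, 96.3% of the 50-base stretches of Sprr2a1 and 96.5% of those of Sprr2a2 also occur in another gene, and 92.5% and 92.8% of their 100-base stretches. For Sprr2a3 the 100-base share was 36.2%, and for Lce3c, Lce3d, Lce3e and Lce3f it was 24.1%, 28.3%, 36.4% and 43.0%, so single-gene values of these 7 are uncertain. The 50-base share was 9.12% to 27.1% in the LCE1 genes other than Lce1m, 19.0% in Lce3a, 12.1% in Lce3b, 13.7% in Sprr2b, 12.5% in Sprr2i and 10.2% in Sprr2e, and since the read length is not given in the labels, single values of these genes carry some of the same uncertainty. The 100-base share was at most 4.90% in the LCE1 genes, 1.16% in the other SPRR2 genes and 1.08% in Lce3a and Lce3b. Lce1m, Sprr2g, Sprr2h, Sprr2k, Sprr1a, Sprr1b, Sprr3, Sprr4 and Lce6a shared no 50-base stretch with another gene.

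Total counts ran from 6381990 to 14432930 per library, and 14671 genes passed the count filter, 33 of the members among them. Levels are given as CPM, counts relative to library size scaled with TMM factors that correct for differences in composition between libraries. Epidermal keratinocyte markers were high in every library: the summed level of 7 basal markers such as Krt5 and Krt14 was 18644 to 30084 CPM, and that of 7 suprabasal markers such as Krt1 and Krt10 was 8097 to 47519 CPM. Markers chosen for non-epidermal epithelium summed to 26.7 to 89.5 CPM over 5 genes. Most of this was Krt78, with group means of 30.6 to 57.0 CPM. Krt4 had group means of 1.39 to 2.03 CPM, and Krt13, Krt76 and Bpifa1 did not pass the count filter. IL-23 intraperitoneal library 28 was the lowest of the 8 IL-23 libraries for every tested SPRR (13 of 13), LCE1 (13 of 13) and LCE3 (6 of 6) gene, so intraperitoneal results that depend on it are also given without it.

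In the oral route IL-23 libraries had more RNA of 28 of the 33 tested members and less of 1, by edgeR's quasi-likelihood test with Benjamini-Hochberg adjustment below 0.05. Sprr4, Lce1c, Lce1l and Lce6a did not pass. Of all 14671 genes tested, 63.3% were called by the same rule, 29.2% higher and 34.0% lower. In the intraperitoneal route 19 members were higher, 2 were lower and 12 did not pass, against 61.7% of all genes called, 30.8% higher and 30.9% lower. The median log2 fold change was 4.32 over the tested members and -0.06 over all genes in the oral route, and 3.62 against -0.02 in the intraperitoneal route. The 4 libraries of one group did not overlap the 4 of the other for 29 of 33 tested members in the oral route, against 59.7% of all genes. In the intraperitoneal route this held for 19 of 33 members, near the 51.0% of all genes. The intraperitoneal share of members called in either direction was also near that of all genes. A fitted fold change is given as log2 with its standard error (SE).

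The tested SPRR1, SPRR2 and LCE3 genes shared a direction, whereas the LCE1 genes did not. SPRR2 (10 of 10 tested), LCE3 (6 of 6) and SPRR1 (2 of 2) genes rose in both routes. The median log2 fold change was 7.35 oral and 6.29 intraperitoneal for SPRR2, 5.78 and 4.97 for LCE3, and 4.19 and 3.52 for SPRR1. Of the 13 LCE1 genes, 10 rose and 1 fell in the oral route, with a median of 0.70, and 1 rose and 2 fell in the intraperitoneal route, with a median of -0.00. Differences between subfamilies were not tested. Sprr2b, Sprr2j-ps, Sprr2k and other members with few vehicle counts passed the count filter through the IL-23 libraries, so these counts describe the tested members and not all 36.

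**Figure D1:**
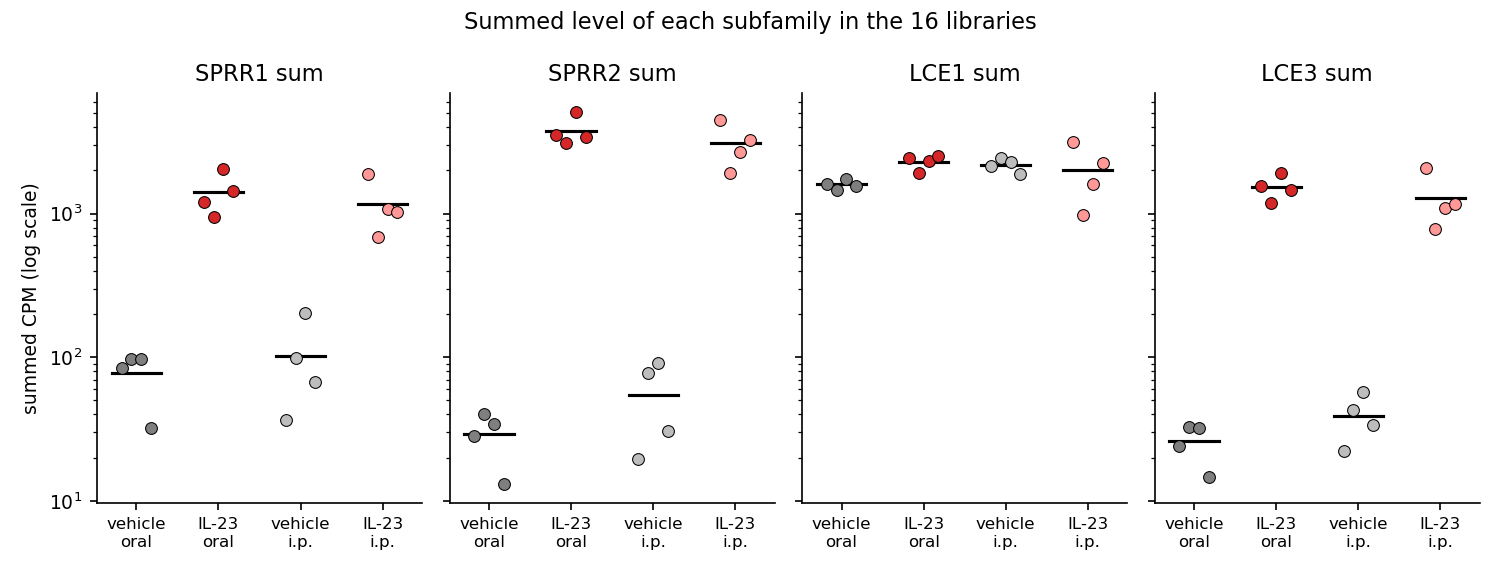
Summed CPM of the SPRR1, SPRR2, LCE1 and LCE3 genes (log axis) in each of the 16 libraries, by group; points are libraries and bars are group means (n = 4). The SPRR1, SPRR2 and LCE3 points of IL-23 libraries lie above those of every vehicle library, whereas the LCE1 points run from 971.9 to 3168 CPM in IL-23 libraries and from 1468 to 2454 CPM in vehicle libraries.

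Sums over a subfamily do not depend on which of its members a shared read was assigned to, and are given without a test. If shared reads were not counted at all, the sums miss them too. Some members also share 50-base stretches with genes that are not members, such as Lce1a1 with Lce1j and Sprr2i with Sprr2c-ps. Reads assigned to such genes would not be in the sums. The SPRR2 sum was 28.4, 40.2, 34.3 and 13.1 CPM in vehicle oral libraries 4, 27, 33 and 51, and 3537, 3118, 5086 and 3403 CPM in IL-23 oral libraries 14, 24, 26 and 68. It was 19.7, 77.8, 91.7 and 30.7 CPM in vehicle intraperitoneal libraries 49, 50, 59 and 67, and 4513, 1916, 2684 and 3252 CPM in IL-23 intraperitoneal libraries 25, 28, 31 and 61. Every IL-23 library thus stood far above every vehicle library, and the ratio of group means was 130.5 oral and 56.2 intraperitoneal. The LCE3 sum went from 26.0 ± 8.46 to 1531 ± 309 CPM (SD, n = 4) oral and from 39.1 ± 15.01 to 1277 ± 552 CPM intraperitoneal, ratios of 58.9 and 32.6. The SPRR1 sum went from 77.5 ± 31.0 to 1410 ± 474 CPM oral and from 102 ± 72.7 to 1166 ± 507 CPM intraperitoneal, ratios of 18.2 and 11.5. Without vehicle intraperitoneal library 59, the log2 ratio of the SPRR1 sum in that route was 4.11, against 3.52 with it. For the LCE1 sum the 4 vehicle oral libraries had 1618, 1468, 1745 and 1565 CPM and the 4 IL-23 oral libraries 2423, 1925, 2336 and 2504 CPM. In the intraperitoneal route it was 2129, 2454, 2289 and 1875 CPM with vehicle and 3168, 971.9, 1614 and 2244 CPM with IL-23. The oral groups did not overlap, while the IL-23 intraperitoneal libraries spanned the whole vehicle range, with library 28 lowest and library 25 highest. The ratio was 1.44 oral and 0.914 intraperitoneal. On the log2 scale the latter is -0.13, and 0.12 without library 28. The 2 vehicle groups also differed in the LCE1 sum without overlap, a difference between routes that was not tested.

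These shifts changed the make-up of the 2 families. The LCE3 sum was 0.00940 to 0.0252 of the LCE1 sum in the 8 vehicle libraries and 0.522 to 0.823 of it in the 8 IL-23 libraries. The SPRR2 sum was 0.337 to 0.784 of the SPRR1 sum with vehicle and 2.37 to 3.28 times the SPRR1 sum with IL-23. SPRR2 counts made up 0.00306% of all counts in vehicle oral and 0.350% in IL-23 oral libraries.

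With IL-23 the highest SPRR2 level belonged to Sprr2d, an envelope cross-bridging protein gene like the other protein-coding genes of its subfamily. It stood at 7.87, 11.1, 6.40 and 3.04 CPM in the vehicle oral libraries and at 1315, 1209, 1784 and 1280.0 CPM in the IL-23 oral libraries, which is 7.64 ± 0.48 on the log2 scale (adjusted p = 3.53e-09). In the intraperitoneal route it stood at 4.90, 16.4, 23.9 and 9.11 CPM with vehicle and 1687, 708.5, 965.3 and 1272 CPM with IL-23, 6.43 ± 0.45 on the log2 scale (adjusted p = 1.19e-08). The groups did not overlap in either route. Sprr2b had the largest fitted rise of the members in the intraperitoneal route. In the oral route its log2 fold change (9.83 ± 0.41) and that of Sprr2j-ps (9.81 ± 0.62) lay within 1 SE of each other. Sprr2b levels with vehicle were 0.477, 0.487, 0.400 and 0.406 CPM oral and 0.196, 1.58, 1.43 and 0.400 CPM intraperitoneal. With IL-23 they were 384.4, 369.6, 477.8 and 416.0 CPM oral and 548.4, 205.5, 342.0 and 403.7 CPM intraperitoneal. Sprr2b thus went from near the floor of detection to more than 200 CPM, a log2 fold change of 9.83 ± 0.41 (912-fold, adjusted p = 4.51e-11) oral and 8.81 ± 0.38 (447-fold, adjusted p = 6.72e-11) intraperitoneal. Sprr2i stood at 1.11, 0.122, 0.9999 and 0.406 CPM with vehicle and 320.0, 278.1, 450.3 and 309.8 CPM with IL-23 in the oral route (8.82 ± 0.48, adjusted p = 7.8e-10). In the intraperitoneal route it stood at 0.392, 2.77, 4.84 and 1.001 CPM with vehicle and 368.6, 184.1, 267.8 and 312.6 CPM with IL-23 (7.01 ± 0.42, adjusted p = 2.6e-09).

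Sprr2f stood at 0.795, 0.487, 2 and 1.12 CPM in vehicle oral and 203.8, 172.7, 383.5 and 168.7 CPM in IL-23 oral libraries, with library 26 well above the other IL-23 libraries (a fitted log2 change of 7.59 ± 0.43, adjusted p = 1.14e-09). In the intraperitoneal route Sprr2f went from 0.850, 2.64, 2.78 and 0.901 CPM to 242.9, 117.4, 139.2 and 175.6 CPM (6.61 ± 0.41, adjusted p = 4.3e-09). Sprr2h was the most abundant SPRR2 gene in vehicle libraries and had the lowest SPRR2 fold change in the 2 routes. It stood at 11.4, 18.3, 15.7 and 4.97 CPM in vehicle oral and 447.0, 388.5, 633.7 and 407.0 CPM in IL-23 oral libraries (5.22 ± 0.38, adjusted p = 1.49e-08). With intraperitoneal dosing it stood at 10.1, 21.9, 27.5 and 13.3 CPM with vehicle and 572.1, 258.5, 313.1 and 339.4 CPM with IL-23 (4.36 ± 0.37, adjusted p = 8.03e-08). The other SPRR2 genes tested, Sprr2a3, Sprr2e, Sprr2g and Sprr2k, rose by 5.91 to 7.11 oral and by 4.70 to 6.54 intraperitoneal on the log2 scale. Single libraries moved some intraperitoneal sizes without ending a call. Without vehicle intraperitoneal library 59, which had the highest vehicle level of 9 of the 13 SPRR genes tested, the log2 fold change was 7.91 for Sprr2i, 6.84 for Sprr2e, 6.28 for Sprr2g and 6.86 for Sprr2j-ps. Without vehicle intraperitoneal library 50 it was 5.47 for Sprr2a3, against 4.70 with it.

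The share of single genes in the SPRR2 counts moved with these unequal rises. Sprr2h held 42.3% ± 3.86 of SPRR2 counts in vehicle oral libraries and 12.4% ± 0.292 in IL-23 oral libraries, and 38.2% ± 11.1 and 12.1% ± 1.32 in the intraperitoneal groups (SD, n = 4). Sprr2d went from 24.3% ± 4.31 to 37.2% ± 1.54 oral and from 25.4% ± 3.55 to 37.4% ± 1.31 intraperitoneal. Sprr2b went from 1.79% ± 0.904 to 11.1% ± 1.26 oral and from 1.47% ± 0.439 to 12.01% ± 0.890 intraperitoneal. The make-up within the SPRR2 subfamily was thus close between the routes in the IL-23 libraries.

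**Figure D2:**
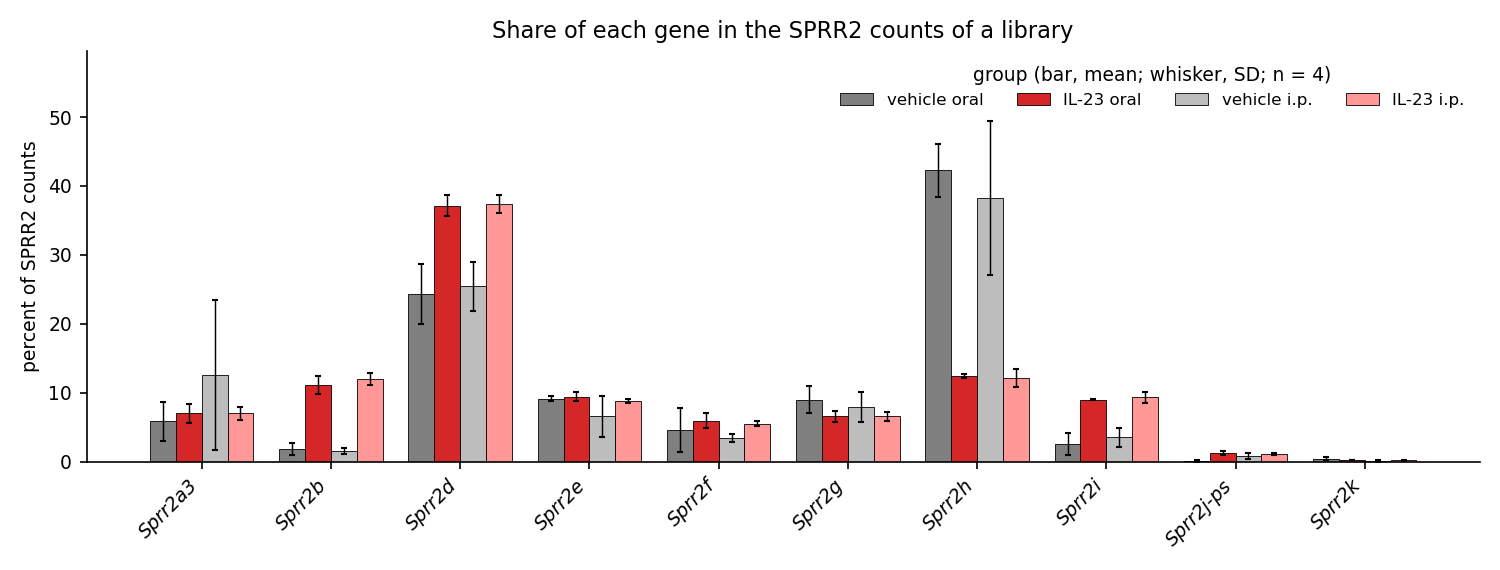
Percent of each library's SPRR2 counts held by each SPRR2 gene with shares large enough to draw; bars are group means and whiskers SD over 4 libraries. Sprr2h leads in both vehicle groups (42.3% and 38.2%) and Sprr2d in both IL-23 groups (37.2% and 37.4%).

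Several members had too few counts for a plain fold change. Sprr2a1 had 0 counts in all 16 libraries, which allows up to 0.0197 CPM over their summed counts, for counting error alone. Sprr2a2 had 0 counts in each vehicle group and 10 counts in each IL-23 group, at least 4.81-fold higher oral and at least 5.17-fold higher intraperitoneal when 3 counts per group are taken as the floor. Fitted without a count filter over 20799 genes, the Sprr2a2 difference had an adjusted p of 0.00365 oral and 0.00321 intraperitoneal by edgeR. Since most of Sprr2a1 and Sprr2a2 is also found in Sprr2a3, their low counts say little of their own transcripts. Sprr2j-ps had 2 counts over the vehicle oral libraries, both in library 33, and 1604 over the IL-23 oral libraries (43.4, 30.7, 86.9 and 42.6 CPM). The ratio was 1156, with a 95% exact binomial interval of 320 to 9557, and without library 33 the level was at least 518-fold higher. After intraperitoneal dosing Sprr2j-ps stood at 0.0654, 0.528, 0.953 and 0.400 CPM with vehicle and 47.4, 23.6, 32.3 and 32.8 CPM with IL-23, 6.15 ± 0.47 on the log2 scale (adjusted p = 2.96e-08). Sprr2k had 2 counts with vehicle and 151 with IL-23 in the intraperitoneal route, a ratio of 117 (31.9 to 977). That ratio was 77.8 (21.2 to 648) without vehicle library 49 and 183 (32.3 to 7271) without vehicle library 67. Intervals and floors pool the libraries of a group and cover counting error only.

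The SPRR1 genes, whose products are envelope cross-bridging proteins known from squamous differentiation and wound repair, had the highest SPRR levels in vehicle libraries and rose less than SPRR2. Sprr1a stood at 37.6, 33.1, 44.1 and 19.4 CPM in vehicle oral and 588.4, 414.5, 1006 and 685.2 CPM in IL-23 oral libraries (a log2 difference of 4.32 ± 0.44, adjusted p = 4.52e-07). Among intraperitoneal libraries it stood at 22.2, 59.4, 88.9 and 27.1 CPM with vehicle and 842.7, 321.2, 472.1 and 468.2 CPM with IL-23 (3.42 ± 0.42, adjusted p = 4.04e-06). Sprr1b stood at 46.5, 64.0, 52.8 and 12.6 CPM with vehicle and 608.7, 537.2, 1050.5 and 750.1 CPM with IL-23 in the oral route (4.07 ± 0.56, adjusted p = 9.05e-06). Neither gene's groups overlapped. With intraperitoneal dosing Sprr1b stood at 14.1, 40.0, 114.7 and 39.7 CPM with vehicle and 1041, 369.0, 596.3 and 554.3 CPM with IL-23 (3.62 ± 0.54, adjusted p = 2.8e-05). Without vehicle library 59 that value was 4.38. Sprr1a and Sprr1b kept near-equal parts of SPRR1 counts, with Sprr1a at 46.3% and 47.3% in the vehicle and IL-23 oral groups and 51.3% and 45.3% in the intraperitoneal groups.

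Sprr3 and Sprr4 stood apart from SPRR1 and SPRR2 by their low level. Sprr3, known from oral and oesophageal lining, had 0 counts with vehicle and 12 with IL-23 in the oral route, at least 5.77-fold higher (adjusted p = 0.00972 without a count filter). IL-23 oral library 24 also had 0, and the other 3 had 0.164, 0.508 and 0.744 CPM. After intraperitoneal dosing Sprr3 had 2 counts in each group (adjusted p = 0.839), and no fold is given. Sprr4 stood at 0.875, 0.122, 1.27 and 0 CPM in vehicle oral and 1.31, 0.725, 2.28 and 1.49 CPM in IL-23 oral libraries, and the groups overlapped (log2 fold change 1.17 ± 0.65, adjusted p = 0.123). The oral log2 difference of Sprr4 was 1.91 without vehicle library 33 (adjusted p = 0.0353) and 1.91 with limma-voom (adjusted p = 0.0401). Among intraperitoneal libraries it stood at 0.654, 0.924, 0.953 and 0.901 CPM with vehicle and 2.27, 0.231, 1.07 and 0.663 CPM with IL-23 (0.26 ± 0.67, adjusted p = 0.755). Without IL-23 library 25 the sign turned (-0.37).

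All 6 LCE3 genes rose in both routes, by 4.995 to 7.16 oral and 3.81 to 6.32 intraperitoneal on the log2 scale. LCE3 proteins are the late envelope proteins known from injured and psoriatic epidermis. Lce3b, the most abundant of them with IL-23, stood at 6.76, 8.04, 8.13 and 3.75 CPM in vehicle oral and 563.2, 411.5, 711.6 and 471.7 CPM in IL-23 oral libraries (a log2 difference of 6.33 ± 0.40, adjusted p = 3.7e-09). With intraperitoneal dosing Lce3b stood at 3.60, 7.79, 10.3 and 6.50 CPM with vehicle and 831.0, 261.1, 370.7 and 397.9 CPM with IL-23 (6.06 ± 0.39, adjusted p = 6.63e-09). The Lce3b groups did not overlap, and its size was near the same in both routes. Lce3c led the subfamily in vehicle libraries, with 8.91, 13.3, 11.3 and 5.98 CPM oral and 10.9, 19.8, 24.1 and 14.3 CPM intraperitoneal. With IL-23 it stood at 308.7, 246.5, 376.7 and 323.6 CPM oral and 377.2, 138.7, 211.5 and 240.8 CPM intraperitoneal. Its rise was the smallest of the 6, at 4.995 ± 0.32 (adjusted p = 4.81e-09) oral and 3.81 ± 0.30 (adjusted p = 4.44e-08) intraperitoneal, and its share of LCE3 counts went from 38.2% to 20.6% and from 44.9% to 19.0%. Lce3b went from 25.8% to 35.1% of LCE3 counts oral and from 17.9% to 35.4% intraperitoneal. Lce3a had the largest LCE3 rise, from 1.77 ± 1.13 to 267.6 ± 39.3 CPM oral and from 2.94 ± 1.43 to 222.5 ± 85.4 CPM intraperitoneal.

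**Figure D3:**
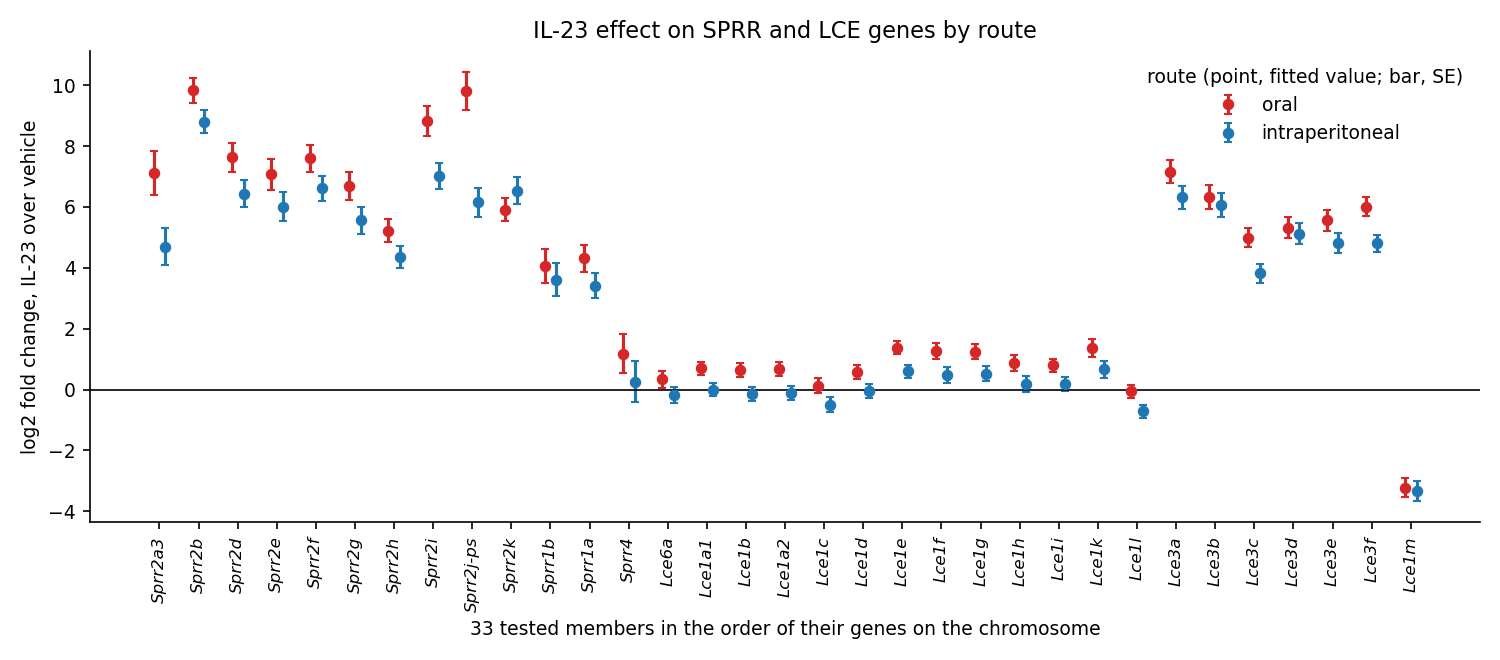
Fitted log2 fold change of IL-23 over vehicle (points) with SE (bars) for the 33 tested members, in the order of their genes along chromosome 3, by route. SPRR2, SPRR1 and LCE3 genes lie between 3.42 and 9.83, the LCE1 genes between Lce6a and Lce3a lie between -0.72 and 1.37, and Lce1m at the far end lies at -3.22 and -3.33.

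LCE1 genes were the abundant members in vehicle libraries and, Lce1m aside, had log2 differences between -0.72 and 1.37. In the oral route 10 of 13 rose, by 0.58 to 1.37 on the log2 scale. The most abundant, Lce1a1, stood at 288.8, 246.1, 312.5 and 267.8 CPM in vehicle oral and 478.8, 365.7, 444.0 and 524.6 CPM in IL-23 oral libraries, without overlap (0.70 ± 0.22, 1.62-fold, adjusted p = 0.00968). After intraperitoneal dosing Lce1a1 stood at 356.5, 415.8, 400.8 and 340.4 CPM with vehicle and 562.3, 193.8, 319.6 and 436.9 CPM with IL-23, and the IL-23 libraries lay on both sides of the vehicle range (-0.00 ± 0.22, adjusted p = 0.994). Lce1e had the largest LCE1 rise, from 63.6, 57.1, 72.1 and 49.5 CPM to 160.4, 137.0, 155.8 and 175.6 CPM oral (1.37 ± 0.22, adjusted p = 4.13e-05). Lce1e also rose in the intraperitoneal route, from 79.1, 103.1, 106.9 and 76.2 CPM to 205.3, 74.5, 124.1 and 153.9 CPM (0.61 ± 0.22, adjusted p = 0.0215). The estimate for Lce1k there was as large but did not pass (0.67 ± 0.29, adjusted p = 0.0517), although it passed with RLE factors (adjusted p = 0.0448) and with no count filter (adjusted p = 0.0417). The Lce1e groups overlapped there through library 28, and the call was lost without vehicle library 49 (0.54, adjusted p = 0.0612) or 67 (0.53, adjusted p = 0.0642) and without IL-23 library 25 (0.36, adjusted p = 0.114) or 61 (0.56, adjusted p = 0.0515). Without library 28, by contrast, 4 LCE1 genes rose in the intraperitoneal route: Lce1e, Lce1f (0.75, adjusted p = 0.00171), Lce1g (0.78, adjusted p = 0.000609) and Lce1k (0.93, adjusted p = 0.00147). Without vehicle library 50 the count was 2, and without IL-23 library 31 it was 3. These 3 genes and Lce1e were also those with the 4 largest LCE1 rises in the oral route, at 1.24 to 1.37.

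Some LCE1 genes were not higher in either route. Lce1c stood at 181.0, 156.8, 192.2 and 179.0 CPM in vehicle oral and 206.9, 165.0, 194.5 and 209.4 CPM in IL-23 oral libraries (0.13 ± 0.24, adjusted p = 0.656). Among intraperitoneal libraries it stood at 243.0, 285.7, 242.7 and 211.4 CPM with vehicle and 290.6, 84.1, 132.4 and 191.5 CPM with IL-23 (-0.50 ± 0.24, adjusted p = 0.0831). Without IL-23 library 25, the IL-23 library in which it was highest, that value was -0.86 (adjusted p = 0.00114). Lce1l, the LCE1 gene nearest to LCE3 within the LCE1 block, stood at 108.2, 114.6, 112.3 and 118.4 CPM with vehicle and 124.3, 99.2, 100.2 and 112.1 CPM with IL-23 in the oral route (-0.06 ± 0.22, adjusted p = 0.826). With intraperitoneal dosing Lce1l fell, from 161.2, 179.8, 170.6 and 144.4 CPM to 156.2, 51.3, 76.7 and 115.7 CPM (-0.72 ± 0.22, adjusted p = 0.00838), with IL-23 library 25 inside the vehicle range. The Lce1d and Lce1b rises in the oral route were near the threshold (adjusted p = 0.0405 and 0.0258). The Lce1d call was kept without IL-23 library 24 and lost without any other single oral library, and the Lce1b call was lost without vehicle library 27 or IL-23 library 68. Lce6a, the single LCE6 gene, stood at 52.5, 50.8, 70.7 and 44.1 CPM in vehicle oral and 83.1, 51.5, 76.9 and 65.0 CPM in IL-23 oral libraries (0.33 ± 0.27, adjusted p = 0.294). After intraperitoneal dosing it stood at 77.4, 100.7, 104.1 and 64.0 CPM with vehicle and 125.0, 35.9, 67.8 and 76.4 CPM with IL-23 (-0.19 ± 0.27, adjusted p = 0.555), and both pairs of groups overlapped.

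Lce1m moved against its subfamily. It was the LCE1 gene outside the LCE1 block, and it fell in both routes while no other member fell in both. It stood at 223.4, 205.4, 254.1 and 268.7 CPM in the vehicle oral libraries and at 26.8, 18.7, 24.4 and 32.01 CPM in the IL-23 oral libraries, which is -3.22 ± 0.32 on the log2 scale (9.33-fold lower, adjusted p = 2.74e-07). Among intraperitoneal libraries it stood at 357.1, 248.5, 255.1 and 237.0 CPM with vehicle and 38.1, 8.54, 22.4 and 42.5 CPM with IL-23, -3.33 ± 0.32 on the log2 scale (10.1-fold lower, adjusted p = 2.71e-07). Every vehicle library had more than 200 CPM and every IL-23 library less than 50 CPM. Its share of LCE1 counts was 13.8% to 17.2% in vehicle oral and 10.1% to 16.8% in vehicle intraperitoneal libraries, and 0.973% to 1.28% and 0.878% to 1.89% in the corresponding IL-23 libraries. This ratio within a library does not depend on scaling. The Lce1m transcripts share no 50-base stretch with another gene, and its coding start, shown above, differs from that of Lce1a1 at 15 of 60 bases.

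**Figure D4:**
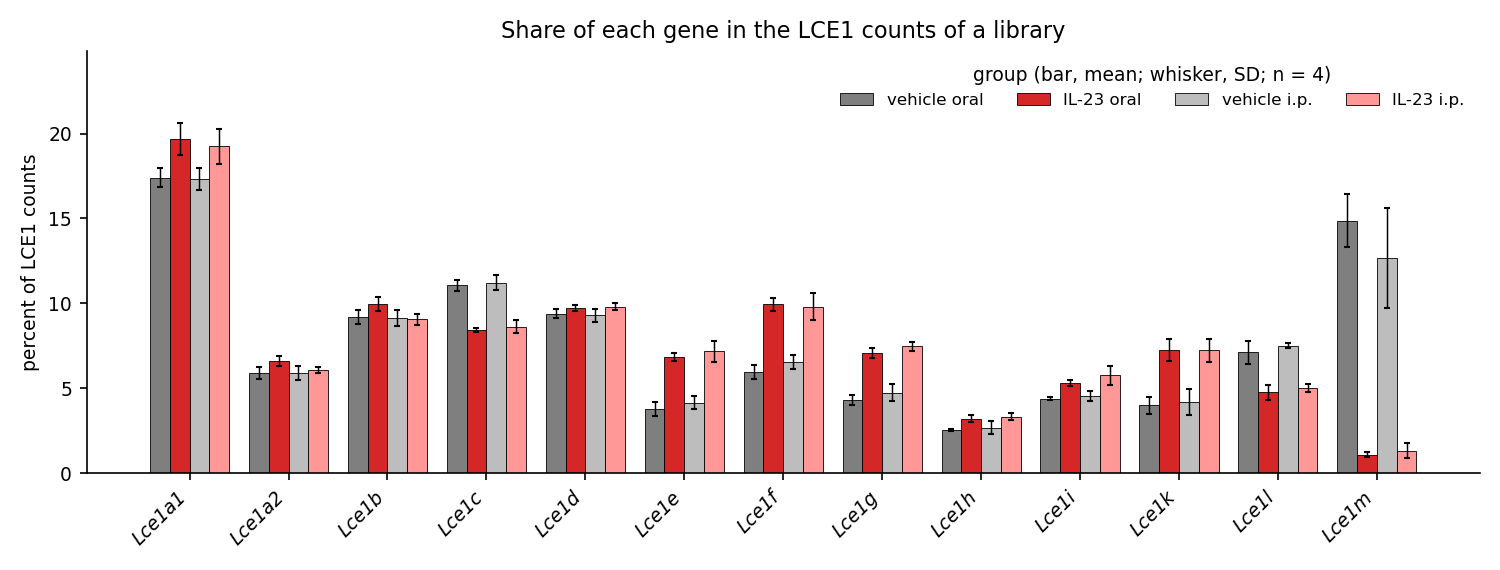
Percent of each library's LCE1 counts held by each LCE1 gene; bars are group means and whiskers SD over 4 libraries. Lce1m goes from 14.9% and 12.7% in the vehicle groups to 1.10% and 1.34% in the IL-23 groups, while Lce1e, Lce1f, Lce1g and Lce1k hold larger shares with IL-23.

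The same reshaping of LCE1 appeared in both routes. Lce1e went from 3.78% ± 0.425 to 6.86% ± 0.245 of LCE1 counts oral and from 4.16% ± 0.395 to 7.17% ± 0.604 intraperitoneal, whereas Lce1l went from 7.12% ± 0.665 to 4.76% ± 0.444 and from 7.51% ± 0.161 to 5.03% ± 0.236 (SD, n = 4). The order of the members' log2 fold changes was close between the routes, which share no library: Spearman's rho was 0.97 over the 13 LCE1 genes and 0.97 without Lce1m, 0.77 over the 6 LCE3 genes and 0.66 over the 10 tested SPRR2 genes. Members of a subfamily share sequence, so these are descriptions.

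Between genes, levels are compared per kilobase of exon (CPM per kb, over merged GENCODE M21 exons). In vehicle oral libraries the 4 highest members were all LCE1: Lce1a1 at 395.5, Lce1m at 250.7, Lce1c at 244.8 and Lce1b at 226.7 CPM per kb. The highest SPRR member there was Sprr1b at 53.0 and the highest LCE3 member Lce3c at 17.4 CPM per kb. In IL-23 oral libraries the order was led by Sprr2d at 2051, Lce3b at 960.0, Sprr1b at 887.5 and Sprr1a at 835.7 CPM per kb, with Lce1a1 at 643.0 and Lce1m at 26.8 CPM per kb. In IL-23 intraperitoneal libraries it was led by Sprr2d at 1701, Lce3b at 827.8, Sprr1b at 771.2 and Sprr1a at 652.7 CPM per kb, with Lce1a1 at 536.5 and Lce1m at 29.4 CPM per kb.

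**Figure D5:**
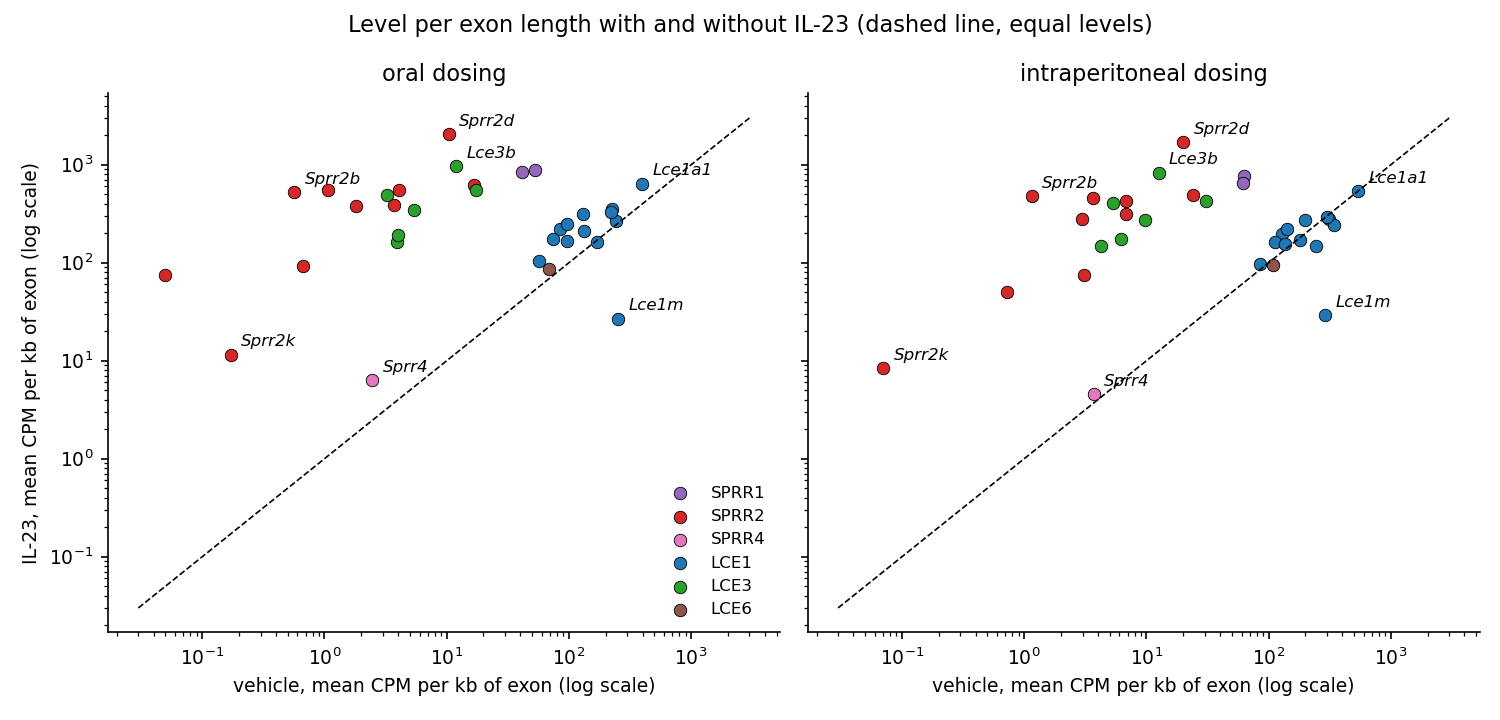
Mean CPM per kb of exon in IL-23 libraries against vehicle libraries (both axes log) for the 33 tested members, by route; each point is a gene and the dashed line marks equal levels. SPRR1, SPRR2 and LCE3 points lie far above the line, most LCE1 points lie near it, and Lce1m lies below it at 250.7 against 26.8 (oral) and 289.1 against 29.4 (intraperitoneal).

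The IL-23 effect was compared between routes by the interaction term, intraperitoneal minus oral. No member passed after adjustment (0 of 33, lowest adjusted p = 0.875 by edgeR), and neither did any of the 14671 genes (0%). At an unadjusted p below 0.05 there were 13 members and 796 genes. DESeq2 called 0 members and 1 gene (11 and 740 unadjusted), and limma-voom 0 and 0 (13 and 789 unadjusted). The estimate was negative, a smaller rise or a deeper fall in the intraperitoneal route, for 32 of the 33 members, with a median of -0.78 against 0.03 over all genes. Without library 28 it was negative for 31 members, with a median of -0.56, and without vehicle intraperitoneal library 59 for 29 members, with a median of -0.62. Leaving out library 59 took the SPRR1 median from -0.68 to -0.06 and the SPRR2 median from -1.09 to -0.58, and the Sprr1b estimate to 0.31. Since the fits share libraries across members, these counts are a description. The largest estimates were those of Sprr2j-ps (-3.66 ± 1.28), which rests on 2 vehicle oral counts, and Sprr2a3 (-2.41 ± 0.95). For Sprr2j-ps the estimate was -5.72 without vehicle oral library 33 and -2.94 without vehicle intraperitoneal library 59. For Sprr2a3 it was -1.64 without vehicle intraperitoneal library 50 and -1.58 with limma-voom. For Lce1m the estimate was -0.11 ± 0.42.

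Within a group, members of a subfamily tended to be high or low in the same libraries. IL-23 oral library 26 was the highest of the 8 IL-23 libraries for 12 of the 13 SPRR genes, and IL-23 intraperitoneal library 25 for 12 of the 13 LCE1 genes and 4 of the 6 LCE3 genes. Among vehicle libraries, intraperitoneal library 59 was highest for 9 of the 13 SPRR and 5 of the 6 LCE3 genes, and intraperitoneal library 50 for 10 of the 13 LCE1 genes. Libraries 28 and 25 also had the lowest (20806 CPM) and the highest (47519 CPM) summed level of the 7 suprabasal keratinocyte markers among IL-23 libraries. Library 28 also had the highest summed level of the 4 leukocyte markers, 639.4 CPM, against 178.0 to 328.8 CPM in the other IL-23 libraries. The part of suprabasal or leukocyte content in the members' values was not tested.

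The other envelope genes moved in both directions. Of 25 tested genes that build, cross-link or process the envelope, 19 rose, 1 fell and 5 did not pass in each route, against 63.3% (oral) and 61.7% (intraperitoneal) of all genes called and 29.2% and 30.8% higher. The median log2 fold change was 1.41 oral and 0.94 intraperitoneal, beside -0.06 and -0.02 over all genes. Rptn, a repetin gene of the same gene complex, went from 23.7 ± 16.3 to 906.4 ± 169 CPM oral and from 15.7 ± 6.18 to 859.1 ± 351 CPM intraperitoneal (SD, n = 4; log2 fold changes 5.27 ± 0.45 and 5.78 ± 0.46). Cnfn, which codes for the envelope protein cornifelin, rose by 3.92 ± 0.30 and 3.03 ± 0.29, and Tchhl1 by 3.38 ± 0.49 and 1.81 ± 0.46. Tgm1, the transglutaminase that cross-links the envelope, went from 59.8 ± 9.41 to 369.6 ± 50.5 CPM oral and from 87.9 ± 17.7 to 369.3 ± 133 CPM intraperitoneal. Ivl, which codes for the scaffold protein involucrin, rose by 1.61 ± 0.32 (adjusted p = 0.000392) and 1.16 ± 0.32 (adjusted p = 0.00483). The intraperitoneal groups overlapped for both Ivl and Tchhl1. Lor, which codes for loricrin, the main envelope protein of resting epidermis, had log2 differences of -0.08 ± 0.33 (adjusted p = 0.838) and -0.49 ± 0.33 (adjusted p = 0.205), and the filaggrin gene Flg of -0.22 ± 0.48 (adjusted p = 0.701) and -0.43 ± 0.48 (adjusted p = 0.449). Flg2, which codes for filaggrin-2, was the gene that fell: from 331.4 ± 41.5 to 10.4 ± 6.94 CPM oral and from 461.0 ± 51.5 to 13.3 ± 11.2 CPM intraperitoneal (-4.96 ± 0.45 and -5.18 ± 0.45). Lce1m and Flg2 are thus genes of this complex that fell in both routes without overlap, beside the SPRR2 and LCE3 genes that rose.

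Of 22 tested transcription factor genes described as regulators of this complex, 17 rose oral and 16 intraperitoneal, 0 fell in either route, and the medians were 1.08 and 0.85. Of all genes, 29.2% were higher oral and 30.8% intraperitoneal, and 63.3% and 61.7% were called in either direction. The epithelial ETS factor genes Elf3 and Ehf rose by 3.73 ± 0.30 and 3.17 ± 0.23 oral and by 3.19 ± 0.29 and 2.74 ± 0.23 intraperitoneal. Junb, which codes for a subunit of AP-1, went from 130.8 ± 11.98 to 741.5 ± 267 CPM oral and from 127.9 ± 19.2 to 444.3 ± 94.0 CPM intraperitoneal (2.51 ± 0.22 and 1.80 ± 0.22). Jun and Fosl1, also AP-1 subunit genes of this list, rose oral (1.05 ± 0.23 and 2.46 ± 0.57). Neither passed in the intraperitoneal route (0.48 ± 0.23, adjusted p = 0.0745, and 1.09 ± 0.51, adjusted p = 0.0717). Nfkbiz, an NF-kB cofactor gene induced by IL-17, rose by 2.32 ± 0.13 and 2.01 ± 0.13.

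Tissue markers also moved with the agent, and a larger share of a cell type cannot be told apart in bulk RNA from more RNA per cell. The marker counts stand beside 63.3% of all genes called oral (29.2% higher, 34.0% lower) and 61.7% intraperitoneal (30.8% higher, 30.9% lower). Of the suprabasal markers, 5 of 7 rose in each route, and their sum was 8097 to 12920 CPM with vehicle and 20806 to 47519 CPM with IL-23. Of the basal markers, 1 rose and 4 fell oral and 2 rose and 3 fell intraperitoneal, and their sum was 18644 to 25052 CPM with vehicle and 20765 to 30084 CPM with IL-23. All 5 tested neutrophil markers rose (sum 25.7 to 118 CPM against 19853 to 30420 CPM, mostly S100a8 and S100a9, which keratinocytes also express), as did 4 of 4 leukocyte markers (83.7 to 123 CPM against 178.0 to 639.4 CPM). All 8 skeletal muscle markers fell (2538 to 5105 CPM against 1126 to 2143 CPM), and 4 of 5 sebaceous markers fell (16834 to 25011 CPM against 6950.3 to 10439 CPM). Of 7 tested hair follicle markers, Tchh rose in both routes (0.92 and 0.45), Krt73 (-2.24) and Krt27 (-0.99) fell intraperitoneal, and the median was -0.21 oral and -1.10 intraperitoneal. The 8 listed hair follicle genes summed to 12.8 to 31.3 CPM with vehicle and 16.4 to 41.2 CPM with IL-23, and no marker in these lists was at 0 in every library. The part of these shifts in the SPRR and LCE results was not tested.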

How the data were processed

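Per the labels' protocols, a stranded Illumina TruSeq total RNA workflow and a HiSeq sequencer were used. The submitters' processing notes name FastQC, STAR 2.52, featureCounts, Subread 1.5.0 and GRCm38. Neither the annotation release nor the strand setting, nor how multiply mapped reads were counted, is given in the sources used here. What was deposited is a table of whole-number read counts for each gene, unscaled, with symbols and IDs. From these counts, edgeR 4.0.16 in R 4.3.3 was used with a filterByExpr minimum count of 10, TMM factors and quasi-likelihood tests on 4 group means (12 residual degrees of freedom), 2-sided, with Benjamini-Hochberg adjustment across 14671 genes and a threshold of 0.05. SE was taken as the size of the log2 fold change divided by the root of F. The procedure was tested on simulated data. Members, gene lists and the rule for named genes were chosen with earlier results of these data known. Values in every library are given for the 2 most abundant members of each subfamily, the 3 largest rises and falls per route, and members called against their subfamily. Outside the families, up to 4 called genes per list with the largest change could be named, plus Lor, Ivl, Flg, Flg2 and Tgm1. Jun and Fosl1 were added beside Junb. Alternatives were RLE, upper-quartile and no scaling factors, no count filter, a filter of 1 CPM in 4 libraries, DESeq2 1.42.0, voom of limma 3.58.1, a fit of the 2 groups compared, and leaving out each library in turn. Libraries of 6381990 to 14432930 counts give little precision for members with few counts in a group.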

Additional observations from a re-analysis of the deposited data

Results flagged for a closer look

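In each group of 4 libraries, each of the 33 tested members was checked for a library whose gap to its nearest neighbour, as a share of the group's range, exceeded Dixon's 95% critical value. Of 132 member and group combinations tested, 5 showed such a library, and chance gives about 1 in 20. Lce1m stood at 357.1 CPM in vehicle intraperitoneal library 49, against 237.0 to 255.1 CPM in the other 3 libraries of its group. Sprr2f stood at 383.5 CPM in IL-23 oral library 26, against 168.7 to 203.8 CPM in the other 3. Sprr2g stood at 390.7 CPM in the same library, against 193.0 to 224.6 CPM in the other 3. Lce1a2 stood at 134.1 CPM in IL-23 oral library 24, against 156.2 to 158.4 CPM in the other 3. Sprr2j-ps stood at 0.133 CPM (2 counts) in vehicle oral library 33 and at 0 in the other 3.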

How the results depend on the processing

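Under all alternatives run, 26 to 30 members were higher and 1 lower in the oral route, and 18 to 22 higher and 2 to 3 lower in the intraperitoneal route. The SPRR1, SPRR2, LCE3 and Lce1m calls in both routes, and the Lce1l call in the intraperitoneal route, were kept in every alternative. With plain library size the median of all genes shifted from -0.06 to -0.26 oral and from -0.02 to -0.23 intraperitoneal, and the share of calls that were higher went from 46.2% to 31.0% and from 49.9% to 31.5%. The log2 ratio of the LCE1 sum in the oral route, 0.52 as reported, was then 0.32, and it was 0.70 as the median of the members. In the intraperitoneal route it ranged from -0.44 to 0.12 on leaving out single libraries, and that of LCE6 from -0.52 to 0.07, each above 0 without library 28 (0.118 and 0.072). The number of LCE1 genes higher in the intraperitoneal route, 1 as reported, ranged from 0 to 4. It was 0 with plain library size and with the 2 groups compared alone, and 2 with RLE factors, with no count filter and with DESeq2. Lce1c was lower there with upper-quartile factors (-0.60), plain library size (-0.74) and limma-voom (-0.64). In the oral route Lce1d and Lce1b were not called with plain library size, nor Lce1d with upper-quartile factors. With limma-voom the intraperitoneal rises of Sprr2a3 and Sprr2e were 5.81 and 6.71, against 4.70 and 6.01. The causes were not tested. No paired analysis was possible because no 2 libraries share a number. Members with fewer than about 10 counts in a group are limited by depth.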
